A study of Danio rerio with 4 samples.

Results

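The genes described here carry names given for a structural motif or for the tissue in which the protein was first seen: ccdc (coiled-coil domain), cfap (cilia and flagella associated protein), lrrc (leucine-rich repeat), spata and spag (spermatogenesis and sperm associated antigen), ttc (tetratricopeptide repeat), wdr (WD repeat) and odf (outer dense fibre). They were chosen by name, as all probe sets with 1 gene symbol that starts with one of these stems and a number, without spag6. No iqc or morn symbol was among them. The rule found 120 of the 8793 genes that the probe annotation names singly, on 150 probe sets. A probe set is a group of short oligonucleotides on an Affymetrix array, designed to measure a transcript, and some probe sets can match more than 1.

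The study compared embryos injected with a morpholino against the microRNA miR-34b (morphants, n = 2 arrays) with embryos injected with a control morpholino (n = 2 arrays), and a morpholino is an antisense oligomer that blocks splicing, translation or processing of an RNA. All embryos were zebrafish of the AB strain carrying Tg(cmyb:EGFP), in which the cmyb promoter drives a green fluorescent protein, and all were 3 days old. For each array, kidney-containing tissue was dissociated, 20000 fluorescent cells were sorted and their pooled RNA was amplified and hybridised. The series describes 2 independent biological sets. Cells were selected by that fluorescence alone, and the share of multiciliated cells among them was not measured.

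A motile cilium is built on an axoneme, a ring of microtubule doublets around a central pair. Proteins bound inside the doublets stiffen them, and dynein arms, radial spokes, tethers and the central apparatus generate and coordinate the beat. Dynein arms are assembled in the cytoplasm, cilia are extended by intraflagellar transport, and each cilium stands on a basal body derived from a centriole. In the zebrafish pronephros, multiciliated cells drive fluid along the tubule. Many axonemal proteins are named only for a coiled coil, a WD repeat or a sperm flagellum, and many proteins with the same kinds of name work elsewhere, for example in ribosome assembly or membrane traffic.

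The labels call the cells kidney multiciliated cells. Of 13 markers listed for such cells, 7 were on the array as named by the annotation, while foxj1a, foxj1b, gmnc, mcidas, ccno and odf3b were not. The summed linear signal of the 7 was 16584 and 16002 on the morphant arrays, against 5218 and 5215 on the control arrays, and 1 of the 7, cfap45, is itself among the genes described here. By mean log2 signal, 6 of the 7 lay higher on the morphant arrays and 1 lay lower. The lower one, dnali1, had 9.76 and 10.43 on the morphant arrays, against 10.57 and 10.33 on the control arrays. Markers of other cells were bright as well: the 10 myeloid markers summed to 89289 and 93543 on the morphant arrays, against 95543 and 88633 on the control arrays. Of the 8 kidney tubule markers on the array, pax8 and slc12a3 lay at background on all 4 arrays. Of the 5 tested, 4 lay above 0, with a median difference (log2, morphant minus control) of 0.51. One passed the test described below: clcnk, a chloride channel, had log2 signals of 7.46 and 7.07 on the morphant arrays, against 5.81 and 5.62 on the control arrays, with an adjusted p of 0.032 in limma. The summed signal of the 8 was 3420 and 3020 on the morphant arrays, against 2302 and 2717 on the control arrays, and its part in the values of cilium genes was not tested. In such a bulk sample, fewer cells of a type and less RNA per cell cannot be told apart.

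Signals are given on the log2 scale as deposited, and differences are morphant minus control with the standard error (SE) of limma's moderated fit and p-values adjusted with the Benjamini-Hochberg method over all 11626 probe sets tested. Of the 150 probe sets, 126 (108 genes) passed the filter on dim probe sets and 24 did not. The genes were placed in 3 classes from general knowledge of their proteins in vertebrates: 32 with a known place in the cilium, flagellum, basal body or centriole, 56 with a known role elsewhere and 32 with no role given. The class is less certain for spata17, spata6l, ccdc34, cfap263 and ccdc88c, placed in the cilium class, and for wdr44, placed elsewhere. Other genes may also be misplaced, such as ccdc120b and wdr62, placed elsewhere, and these were not moved in the alternative given below. The classes were set with earlier results of these data known, so the spread of calls over them is not independent support.

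Among the genes described here, most of those called higher in the morphants had been placed in the cilium class. Of the 126 probe sets, 25 (23 genes) were higher in the morphants at an adjusted p under 0.05 and 0 were lower, where 2.49% of all probe sets tested were called higher and 0.12% lower. At an unadjusted p under 0.05, 43 were higher and 7 lower, beside 11.6% and 6.10% of all probe sets tested, so the count of lower ones was near the share over the whole table. The cilium class held 19 of the 25 calls, from 33 tested probe sets, and its median difference was 1.36, or 2.57-fold. With the 6 genes of less certain class moved, it held 16 calls from 30 tested probe sets, with a median of 1.30. Genes with a role elsewhere held 1 call from 63 tested probe sets and had a median of -0.04, which was 0.039 with 1 probe set per gene. Genes with no role given held 5 calls from 30 and had a median of 0.38. The median over all probe sets tested was -0.02.

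**Figure D1:**
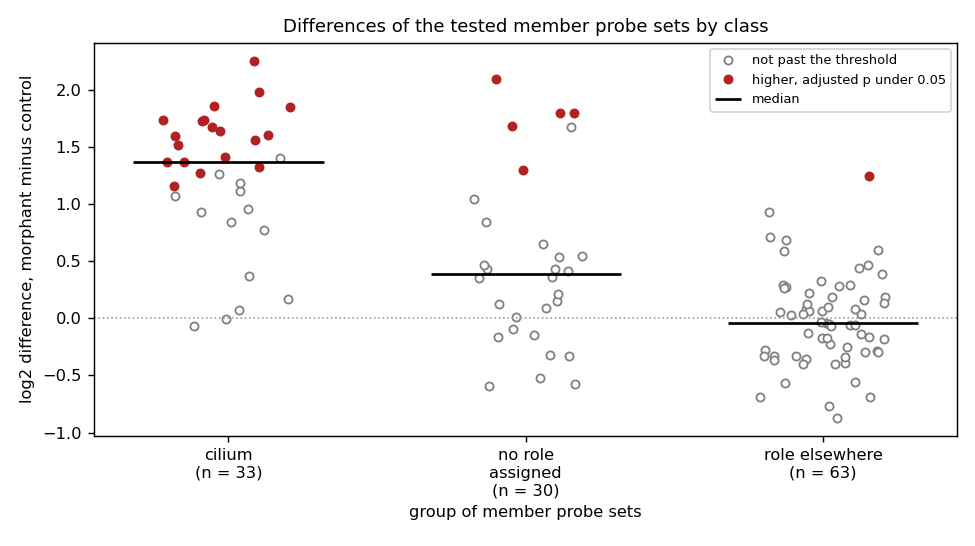
Log2 difference (morphant minus control, vertical axis) of each of the 126 tested probe sets, in the classes cilium (n = 33), no role assigned (n = 30) and role elsewhere (n = 63). Filled points passed an adjusted p of 0.05 in limma, open points did not, and the line is the class median. The cilium median lies at 1.36 and the median of genes with a role elsewhere at -0.04.

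The single arrays, whose values also gave the differences above, showed the same order of the classes and are not separate evidence. Both morphant arrays lay above both control arrays for 29 of the 33 cilium probe sets and below them for 0, where 25.1% of all probe sets tested lay above and 24.7% below in this way. Among genes with a role elsewhere, 12 of 63 lay above and 18 below, and among genes with no role given 18 of 30 lay above and 5 below. Differences of at least 2-fold upwards were reached by 24 cilium probe sets, by 1 with a role elsewhere and by 7 with no role given, against 4.69% of all probe sets tested. Differences of at least 2-fold downwards were reached by 0 of the 126, against 1.51% of all probe sets tested. Of the 126, ccdc146 (cilium), cfap20dc (no role given) and lrrc4.1 (role elsewhere) passed the filter on dim probe sets only through their morphant signals. Their differences were thereby favoured to lie above 0. A probe set of spata2l (role elsewhere) passed only through its control signals, and its difference was favoured to lie below 0.

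With 2 arrays a group, the calls depend on every array. Without control replicate 1 the calls were cfap144 and spag8, without control replicate 2 they were cfap144 and lrrc71, and without morphant replicate 1 or morphant replicate 2 there were 0. All 25 probe sets kept their direction in each of these fits. Leaving out 1 array moved the difference by over 1.5 times in 0 of the 25 and in 68 of the 101 that did not pass. The 25 were picked on these same arrays for large differences with small spread, so neither count is separate support for them. The median of the cilium class stayed between 1.31 and 1.42 over these settings. Morphant replicate 2 stood apart in the array's quality controls: its spiked poly-A controls averaged 8.73, against 9.53 on the other morphant array and 9.93 and 9.92 on the control arrays, and its actin 3′ signal exceeded the 5′ signal by 3.39, against 2.38 on the other morphant array and 2.54 and 2.47 on the control arrays. Without that array the cilium median was 1.40.

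The microtubule inner proteins line the inside of the doublets. Of their 8 tested probe sets, 5 (4 genes) were higher, the median difference was 1.73 and in all 8 the morphant arrays lay above the control arrays. cfap144 had signals of 9.89 and 9.63 on the morphant arrays, against 7.51 and 7.49 on the control arrays. This is a difference of 2.25 ± 0.18 (SE), or 4.77-fold, with an adjusted p of 0.0168 in limma, and it was the highest difference among the 126 probe sets. cfap45, an inner protein that lies in the B-tubule, was measured by a pair of probe sets that both passed. One gave 10.80 and 10.49 on the morphant arrays, against 8.66 and 8.92 on the control arrays (1.85 ± 0.20 SE, adjusted p = 0.0207), and the other gave 8.66 and 8.79, against 7.09 and 6.90 (1.73 ± 0.17 SE, adjusted p = 0.0183). The groups were separated by more than the gap between replicates in both. cfap52 reached 11.15 and 10.95 on the morphant arrays, against 9.13 and 9.50 on the control arrays, a rise of 1.74 ± 0.20 (SE, adjusted p = 0.024). cfap210, another inner protein, had 10.14 and 10.50 on the morphant arrays and 8.45 and 8.71 on the control arrays, 3.33-fold higher in the morphants (adjusted p = 0.025).

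The other 3 inner-protein genes lay higher on both morphant arrays and did not pass. cfap20, at the inner junction of the doublet, had 12.41 and 12.53 on the morphant arrays, against 11.61 and 11.48 on the control arrays, a difference of 0.93 ± 0.17 (SE, adjusted p = 0.0641 in limma). cfap126, known as Flattop, had 9.41 and 9.33 on the morphant arrays, against 8.40 and 8.44 on the control arrays, and its difference of 0.95 had an adjusted p of 0.0549. In both genes the arrays of a group lay close together. In spag8 they did not: 7.71 and 7.67 on the morphant arrays stood against 7.00 and 5.57 on the control arrays, and the difference of 1.40 ± 0.47 (SE) had an adjusted p of 0.217. The difference of spag8 was 2.12 without control replicate 1 and 0.69 without control replicate 2.

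In the central apparatus all 4 tested probe sets (3 genes) were higher. spata17, an IQ-motif protein first described in sperm and linked to the central apparatus, had 8.60 and 8.78 on the morphant arrays, against 7.00 and 6.66 on the control arrays, a 3.63-fold difference (1.86 ± 0.20 SE, adjusted p = 0.0194 in limma). spag17, a central pair protein, was measured by a pair of probe sets. The first gave 8.86 and 9.12 on the morphant arrays, against 7.65 and 7.68 on the control arrays, and the second gave 8.32 and 8.24, against 6.91 and 6.61. Their differences, 1.33 ± 0.18 and 1.52 ± 0.18 (SE), had adjusted p-values of 0.032 and 0.026, and in neither did the groups overlap. cfap54, also of the central pair, had 7.93 and 7.85 on the morphant arrays, against 6.42 and 6.63 on the control arrays (2.58-fold, adjusted p = 0.0281).

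Radial spokes reach from the doublets towards the central pair, and rulers set the axonemal repeat. Proteins of tethers were grouped with those of spokes and rulers. Of their 6 tested genes 4 were higher, with a median difference over the 6 of 1.39, and in all 6 the groups were apart, with the morphants higher. lrrc23, a leucine-rich repeat protein of the spokes, had 8.99 and 9.43 on the morphant arrays, against 7.47 and 7.61 on the control arrays (1.67 ± 0.21 SE, adjusted p = 0.0286 in limma). cfap91, a calmodulin and spoke-associated protein, had 10.32 and 10.30 on the morphant arrays, against 8.74 and 8.77 on the control arrays, a difference of 1.56 ± 0.16 (SE, adjusted p = 0.0183). The arrays of each group nearly coincided for this gene. cfap100, a regulator of inner dynein arms in Chlamydomonas, had 10.30 and 10.24 on the morphant arrays and 8.93 and 8.80 on the control arrays, 2.66-fold higher in the morphants (adjusted p = 0.0233). cfap43, of the tether complex, had 10.32 and 10.65 on the morphant arrays, against 9.18 and 9.06 on the control arrays, 2.57-fold higher (adjusted p = 0.0357).

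The remaining pair of this group did not pass. ccdc39, which with its partner Ccdc40 forms the ruler of the axonemal repeat, had 10.61 and 10.37 on the morphant arrays, against 9.52 and 9.11 on the control arrays, and its difference of 1.18 ± 0.21 (SE) had an adjusted p of 0.0647 in limma. cfap263, an axonemal coiled-coil protein, had 11.11 and 11.30 on the morphant arrays, against 10.78 and 10.09 on the control arrays (0.77 ± 0.27 SE, adjusted p = 0.235). The difference of cfap263 was 1.11 without control replicate 1 and 0.42 without control replicate 2.

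Flagellar proteins without a finer place in the axoneme gave 2 calls from 6 tested genes, with a median difference of 1.19. cfap58 had 10.48 and 10.65 on the morphant arrays, against 8.58 and 8.59 on the control arrays, a 3.94-fold difference (1.98 ± 0.17 SE, adjusted p = 0.0183 in limma) that was exceeded only by cfap144 in the cilium class. spata4, found in sperm flagella, had 12.04 and 11.90 on the morphant arrays, against 10.83 and 10.58 on the control arrays (1.27 ± 0.18 SE, adjusted p = 0.0368). The coiled-coil genes ccdc181, ccdc34 and ccdc146 lay higher on both morphant arrays without passing. ccdc181, a flagellar microtubule-binding protein, had 6.77 and 6.46 on the morphant arrays, against 5.53 and 5.17 on the control arrays (1.26, adjusted p = 0.0565). ccdc34, of sperm flagella, had 9.28 and 9.50, against 8.40 and 8.15 (1.11, adjusted p = 0.0549). ccdc146, of centrioles and flagella, had 6.07 and 5.74, against 5.02 and 5.11 (0.84, adjusted p = 0.104), and it passed the filter on dim probe sets only through its morphant signals. cfap97, named for the ortholog of the fly ciliary protein Hemingway, overlapped between groups, at 6.97 and 7.59 on the morphant arrays and 7.02 and 7.21 on the control arrays.

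Among the assembly factors of dynein arms, spag1b passed and its paralog spag1a did not. spag1b had 8.92 and 8.80 on the morphant arrays, against 7.44 and 7.07 on the control arrays, a difference of 1.61 ± 0.20 (SE, adjusted p = 0.0263 in limma). spag1a had 8.90 and 9.40 on the morphant arrays, against 9.15 and 9.28 on the control arrays, a difference of -0.07 ± 0.22 (SE, adjusted p = 0.914), with both control values inside the morphant range. The difference between the paralogs was not tested. cfap298, which takes part in the assembly of the arms in the cytoplasm, had 10.23 and 10.08 on the morphant arrays, against 9.08 and 8.92 on the control arrays (2.23-fold, adjusted p = 0.0403).

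At the basal body 2 of 4 genes were higher. ccdc88c, known as Daple, a partner of Dishevelled that lies at the basal feet, had 9.61 and 9.70 on the morphant arrays, against 8.08 and 8.03 on the control arrays, a difference of 1.60 ± 0.16 (SE, adjusted p = 0.0183 in limma). spata6l, a paralog of a protein of the sperm connecting piece, had 8.00 and 7.84 on the morphant arrays, against 6.07 and 6.50 on the control arrays (1.64 ± 0.21 SE, adjusted p = 0.03). The centriole genes ccdc61 and wdr90 did not pass. ccdc61 had 5.96 and 5.79 on the morphant arrays, against 5.66 and 5.94 on the control arrays, and its groups overlapped. wdr90 had 9.04 and 8.96, against 8.98 and 9.02, with the control values again inside the morphant range (difference -0.01 ± 0.16 SE).

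Of the 2 transport genes 0 passed in limma, 1 had an unadjusted p under 0.05, and both lay higher on both morphant arrays. ttc21b, the retrograde subunit IFT139, had 7.81 and 7.94 on the morphant arrays, against 6.90 and 6.71 on the control arrays, and its difference of 1.07 ± 0.17 (SE) had an adjusted p of 0.0506 in limma, just over the threshold. ttc8, the BBSome subunit BBS8, had 8.24 and 8.56 on the morphant arrays, against 8.06 and 8.00 on the control arrays (0.37 ± 0.19 SE, adjusted p = 0.39).

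**Figure D2:**
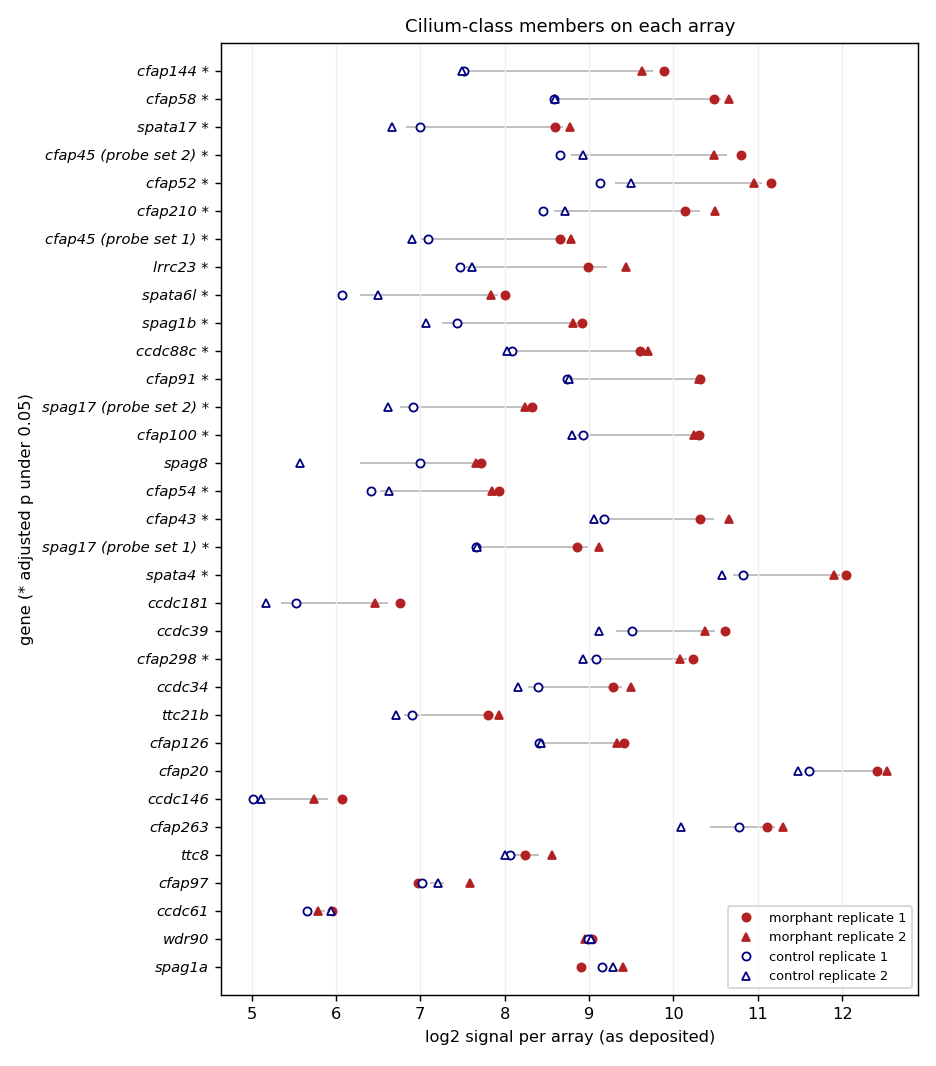
Log2 signal (horizontal axis) of the 33 tested probe sets of the cilium class on each array, ordered by difference, with filled symbols for the 2 morphant arrays and open symbols for the 2 control arrays. The grey line joins the group means and an asterisk marks an adjusted p under 0.05. From cfap144 at the top down to ttc8 both morphant arrays lie above both control arrays, and cfap97, ccdc61, wdr90 and spag1a overlap.

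Genes of the same structures under other names were measured beside them. Of 21 tested genes on a list of axoneme and assembly proteins outside the 120, spag6 among them, 15 were higher and 0 lower, with a median difference of 1.68. tekt1, a tektin filament protein inside the doublets, had 12.19 and 12.02 on the morphant arrays, against 9.88 and 9.74 on the control arrays. In the same list tekt3 and dnali1 lay below 0, at -0.98 and -0.36. Of 17 tested genes of intraflagellar transport and the BBSome, 13 were higher and 0 lower, with a median of 1.44, beside 0 of 2 among the genes described here that belong to those complexes. One of the 13 was cluap1, a transport subunit, with 8.80 and 8.89 on the morphant arrays and 6.68 and 6.55 on the control arrays. Another of the 13, ift81, had 5.59 and 6.02 on the morphant arrays, against 4.51 and 4.29 on the control arrays. It passed the filter on dim probe sets only through its morphant signals, so its difference was favoured to lie above 0. Over all probe sets tested, 2.49% were called higher and 0.12% lower.

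Among the 32 genes with no role given, 5 were higher. lrrc71 had 8.13 and 8.31 on the morphant arrays, against 5.89 and 6.37 on the control arrays, a 4.27-fold difference (2.09 ± 0.22 SE, adjusted p = 0.0194 in limma) and the second highest of all 126 probe sets. ccdc77 had 10.65 and 10.73 on the morphant arrays, against 8.90 and 8.88 on the control arrays (1.80 ± 0.16 SE, adjusted p = 0.0183). lrrc51 had 10.12 and 9.62 on the morphant arrays, against 8.09 and 8.06 on the control arrays (1.80 ± 0.22 SE, adjusted p = 0.0263). In each the gap between the groups was wider than the gap between replicates. cfap299 and cfap90 carry the cilium name without a more exact role given here. cfap299 had 10.98 and 10.99 on the morphant arrays, against 9.34 and 9.28 on the control arrays (3.20-fold, adjusted p = 0.0183), and cfap90 had 11.19 and 11.20, against 9.98 and 9.81 (2.46-fold, adjusted p = 0.0286).

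Other genes with no role given lay high without passing. cfap20dc, named for a domain it shares with cfap20, had 6.70 and 6.00 on the morphant arrays, against 4.44 and 4.91 on the control arrays, a difference of 1.68 ± 0.30 (SE, adjusted p = 0.0647 in limma). One of its control arrays was at background, and the probe set passed the filter on dim values only through its morphant signals. ccdc83 had 8.98 and 8.74 on the morphant arrays, against 8.19 and 7.45 on the control arrays (1.04 ± 0.29 SE, adjusted p = 0.158), and its difference was 1.41 without control replicate 1 and 0.67 without control replicate 2. ttc9c had 9.28 and 9.02 on the morphant arrays, against 8.39 and 8.23 on the control arrays (0.84 ± 0.18 SE, adjusted p = 0.0983). The 3 tested probe sets of ccdc102a lay between 0.43 and 0.65 above control and the 3 of wdr13 between 0.22 and 0.54, each with the groups apart and none past the threshold. Probe sets of the same gene are not independent, and 25.1% of all probe sets tested lay above in this way. A further probe set of ccdc102a, too dim to test, overlapped between groups. Both morphant arrays lay below both control arrays for 5 of the 30 tested probe sets with no role given, against 24.7% of all probe sets tested. These were ccdc82, ttc13, ccdc167, ccdc28a and spag7. ccdc82 had 7.35 and 7.52 on the morphant arrays, against 8.03 and 8.00 on the control arrays, a difference of -0.58 ± 0.17 (SE, adjusted p = 0.171), and ttc13 differed by -0.52.

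Genes with a role elsewhere were divided, with 30 of 63 probe sets above 0 and 33 below. The 1 gene past the threshold was spata18, a protein of mitochondrial quality control, with 10.17 and 9.97 on the morphant arrays, against 8.95 and 8.70 on the control arrays (1.24 ± 0.19 SE, adjusted p = 0.0413 in limma). Its adjusted p lies close to the threshold, and the call was lost under quantile and cyclic loess normalization, with the direction kept. Next below it was ccdc120b, a cytohesin partner, with 7.14 and 7.24 on the morphant arrays, against 6.32 and 6.20 on the control arrays (0.93 ± 0.16 SE, adjusted p = 0.0621). wdr24, a subunit of the nutrient-sensing GATOR2 complex, had 8.51 and 8.13, against 7.33 and 7.90 (0.71 ± 0.26 SE, adjusted p = 0.256).

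The WD-repeat genes of ribosome biogenesis, with 2 coiled-coil nucleolar genes, lay mostly below 0 without passing. Of 14 tested probe sets (10 genes) 0 passed in either direction, 11 lay below 0 and 3 above, and the median was -0.29. At an unadjusted p under 0.05 in limma, 0 of the 14 were higher and 1 lower. Of all probe sets tested, 11.6% were higher and 6.10% lower at that p, and their median was -0.02. The count of lower ones was thus near the share over the whole table. With 1 probe set per gene the median of the ribosome biogenesis group was -0.14, with 7 of 10 genes below 0. wdr3, of the small subunit processome, was measured by 4 probe sets, whose differences ran from -0.40 to -0.34. In 1 of the 4 the morphant arrays had 9.59 and 9.64, against 10.15 and 9.87 on the control arrays (-0.39 ± 0.18 SE, adjusted p = 0.351). All 4 probe sets of wdr3 had both morphant arrays below both control arrays, as had 24.7% of all probe sets tested. The 4 measure 1 gene, so they are not independent. wdr12, of the large subunit, had 8.23 and 8.31 on the morphant arrays and 8.52 and 8.67 on the control arrays (-0.33). ccdc137, a nucleolar coiled-coil protein, had 6.44 and 6.90 on the morphant arrays, against 7.46 and 7.42 on the control arrays (-0.77 ± 0.21 SE, adjusted p = 0.158). wdr46 and wdr75, also of the processome, ran the other way at 0.27 and 0.32, with the groups apart, as in 25.1% of all probe sets tested. Other ribosome biogenesis genes, without these names, showed 0 of 43 past the threshold in limma, 1 higher and 0 lower at an unadjusted p under 0.05, 31 below 0, 12 above and a median of -0.10, which ran from -0.18 to -0.054 with 1 array left out.

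Other differences below 0 were found in single genes of other kinds, and 0 of them passed. lrrc8c, a subunit of the volume-regulated anion channel, had 6.22 and 6.32 on the morphant arrays, against 7.16 and 7.13 on the control arrays (-0.87 ± 0.16 SE, adjusted p = 0.0677 in limma), the lowest value of the 126. Its paralog lrrc8aa, of the same channel, had 9.57 and 9.05, against 8.96 and 9.09, and the groups overlapped. wdr1, also called Aip1, a cofilin partner in actin disassembly, had 8.08 and 8.52 on the morphant arrays, against 9.04 and 8.94 on the control arrays (-0.69 ± 0.21 SE, adjusted p = 0.188). wdr33, which reads the polyadenylation signal, and wdr4, a partner of a tRNA methyltransferase, both differed by -0.56, with adjusted p-values of 0.185 and 0.238. One of 2 tested probe sets of spata2l differed by -0.69, which was -0.16 without morphant replicate 1 and -1.22 without morphant replicate 2, and the other by -0.17. The probe set at -0.69 had a morphant mean of 4.99, under the filter cutoff of 5.10, and a control mean of 5.68. It passed the filter on dim probe sets only through its control signals, so its difference was favoured to lie below 0. Skeletal muscle markers lay below 0 in 16 of 16 genes, with 0 past the threshold in limma. At an unadjusted p under 0.05 in limma 6 of the 16 were lower, beside 6.10% of all probe sets tested. The median of the muscle markers was -0.59, with summed signals of 127415 and 99798 on the morphant arrays, against 161627 and 122896 on the control arrays. The muscle median was -0.24 without morphant replicate 2 and -0.37 without control replicate 1, with 15 of 16 below 0 in both. Their part in these lower values was not tested.

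**Figure D3:**
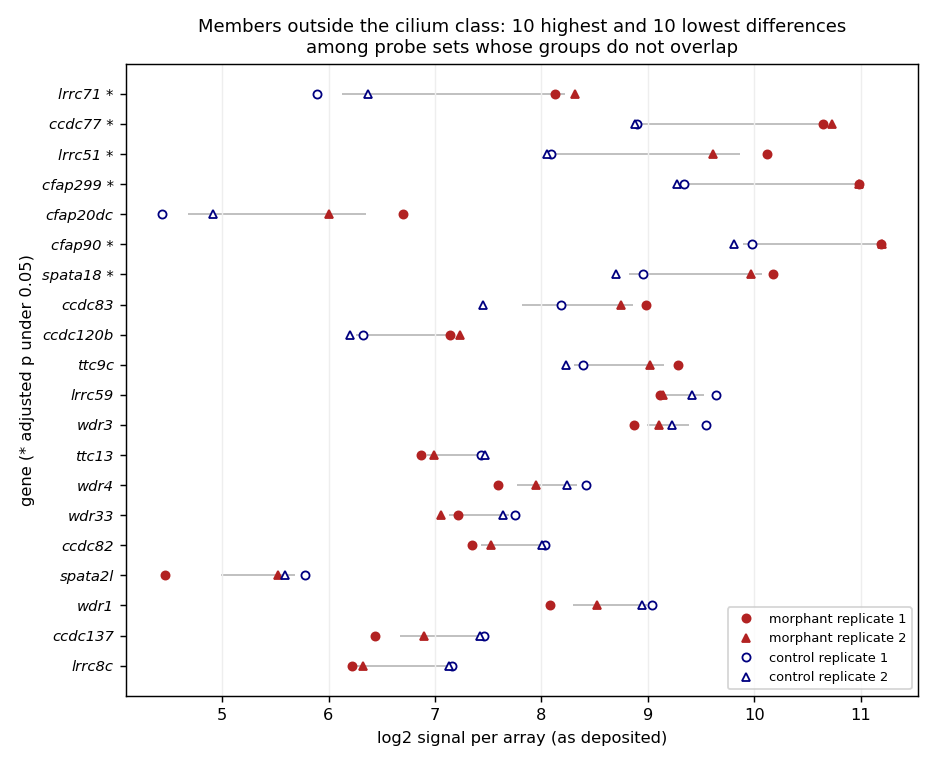
Log2 signal (horizontal axis) on each array for the 10 highest and 10 lowest differences among probe sets outside the cilium class whose groups do not overlap, ordered by difference. Filled symbols are the morphant arrays, open symbols the control arrays, the grey line joins the group means and an asterisk marks an adjusted p under 0.05. The top line, lrrc71, has a difference of 2.09 and the bottom line, lrrc8c, one of -0.87.

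Membrane traffic and autophagy genes gave 0 calls in limma from 14 tested probe sets. At an unadjusted p under 0.05 in limma 1 was higher, beside 11.6% of all probe sets tested. Of the 14, 7 lay above and 7 below 0, with a median of 0.0035 that was -0.027 under quantile normalization and -0.069 under median centring. wdr44, a Rab11 effector known to restrain the building of cilia, had 10.31 and 10.32 on the morphant arrays in 1 of its probe sets, against 10.37 and 10.41 on the control arrays, a difference of -0.07. Another had 6.53 and 6.84 on the morphant arrays, against 6.91 and 7.05 on the control arrays, a difference of -0.30 ± 0.19 (SE, adjusted p = 0.491 in limma). In both probe sets the morphant arrays lay below the control arrays, as in 24.7% of all probe sets tested. The remaining probe set of wdr44, too dim to test, ran the other way, with 5.49 and 3.46 on the morphant arrays, against 3.37 and 0.54 on the control arrays. ttc7b, a subunit of a phosphatidylinositol kinase complex and one of the genes with high signals in the controls, had 10.77 and 10.86 on the morphant arrays, against 10.81 and 10.89 on the control arrays (-0.03 ± 0.16 SE). The 3 probe sets of ccdc22, a subunit of the Commander complex, ran from -0.29 to 0.12 and all overlapped. wdr43, of ribosome biogenesis, and ccdc167, with no role given, likewise had high signals. wdr43 had 10.94 and 11.26 on the morphant arrays, against 11.32 and 11.33 on the control arrays, and ccdc167 had 10.70 and 11.02, against 11.11 and 11.28. Both lay lower on the morphant arrays without passing.

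By name, the cfap genes held 13 of the 25 calls. All 18 tested cfap probe sets lay above 0 and 13 passed, with a median of 1.48. Of the 18, cfap20dc, which did not pass, was tested only because its morphant signals took it through the filter on dim probe sets. The spag genes gave 3 of 6 (median 1.36), the spata genes 4 of 8 (median 0.97) and the lrrc genes 3 of 12 (median 0.32). Of 35 ccdc probe sets 2 passed, with a median of 0.12 that was 0.26 without control replicate 2, 0.21 without morphant replicate 1 and 0.051 under median centring. Of 8 ttc probe sets 0 did, with 2 higher and 1 lower at an unadjusted p under 0.05 in limma and a median of 0.32 that was 0.089 without morphant replicate 1. The wdr genes, with 39 tested probe sets of 29 genes, gave 0 calls in either direction, and 2 higher and 3 lower at an unadjusted p under 0.05. Their median was -0.05, which was 0.0053 without morphant replicate 2, and 10 probe sets were apart upwards and 12 downwards. Over all probe sets tested, 25.1% were apart upwards and 24.7% downwards, and 11.6% were higher and 6.10% lower at an unadjusted p under 0.05 in limma. Past the adjusted threshold, 2.49% of all probe sets tested were called higher and 0.12% lower. The 0 calls of the ttc and wdr genes were near these shares. The single odf gene, odf3l2a, was too dim to be tested.

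**Figure D4:**
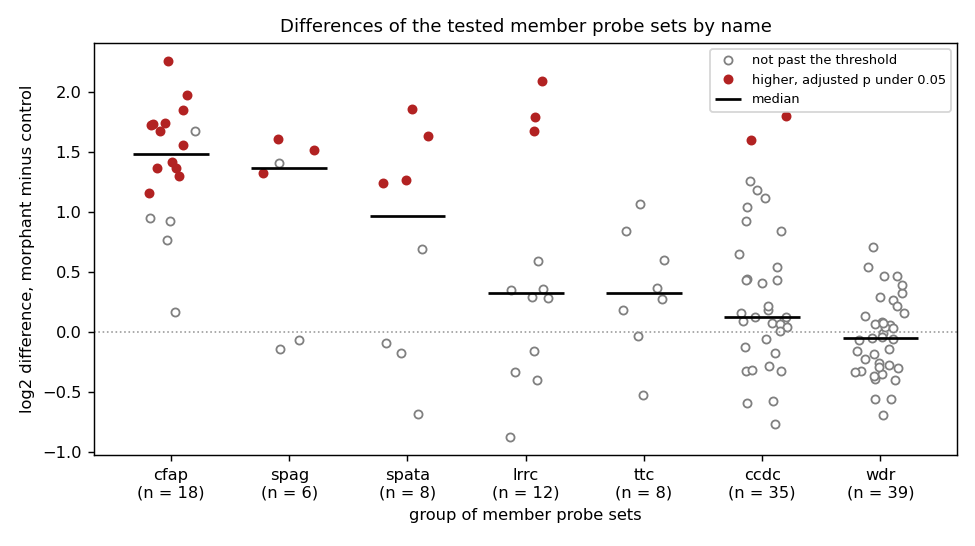
Log2 difference (morphant minus control, vertical axis) of the tested probe sets by name stem, with n below each stem. Filled points passed an adjusted p of 0.05 in limma, open points did not, and the line is the median. The cfap median is 1.48 and the wdr median -0.05.

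Neural markers lay mostly above their control values. All 9 lay above 0, with a median of 0.70 and 0 past the threshold in limma. At an unadjusted p under 0.05 in limma 6 were higher, beside 11.6% of all probe sets tested. Without control replicate 1, and also without control replicate 2, 8 of the 9 lay above 0, with medians of 0.83 and 0.60. The summed signal of the 9 was 3342 and 3512 on the morphant arrays, against 2355 and 1959 on the control arrays. The part of the neural transcripts in the values of cilium genes was not tested. Markers of red blood cells summed to 6927 and 7870 on the morphant arrays, against 14978 and 6338 on the control arrays, with the highest sum on control replicate 1. Without control replicate 1 the cilium median was 1.42. The part of red blood cell transcripts in the values of cilium genes was not tested.

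A total of 24 probe sets were too dim to test, and 12 genes had no other: odf3l2a, ccdc106b, lrrc17, lrrc4.2, lrrc4ca, wdr48a, ccdc73, ttc34, ccdc87, lrrc61, ttc27 and lrrc3b. Background on each array was taken as the brightest of 20 array controls whose sequences zebrafish lacks. A second probe set of cfap43 was at background on both control arrays and above it on both morphant arrays, at 5.25 and 4.92, and it was at least 1.70-fold higher in the morphants. A second probe set of ccdc181, at background on both control arrays and on 1 of the 2 morphant arrays, was at least 1.35-fold higher, with the signal of that array counted as it stood. Bounds of this kind outside the cilium class were at least 1.11-fold and 1.13-fold higher for a further probe set of wdr44 and for ccdc87, each with 1 of the 2 morphant arrays at background, and at least 1.12-fold lower for ccdc106b, with 1 of the 2 control arrays at background. The groups of ccdc87 overlapped, with 4.12 and 4.87 on the morphant arrays, against 4.53 and 3.42 on the control arrays. Bounds of these dim probe sets compare group means, were not tested and carry no measure of spread. Among the 20 genes with several probe sets, the pairs of cfap45 and spag17 were the ones in which more than 1 probe set passed.

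**Figure D5:**
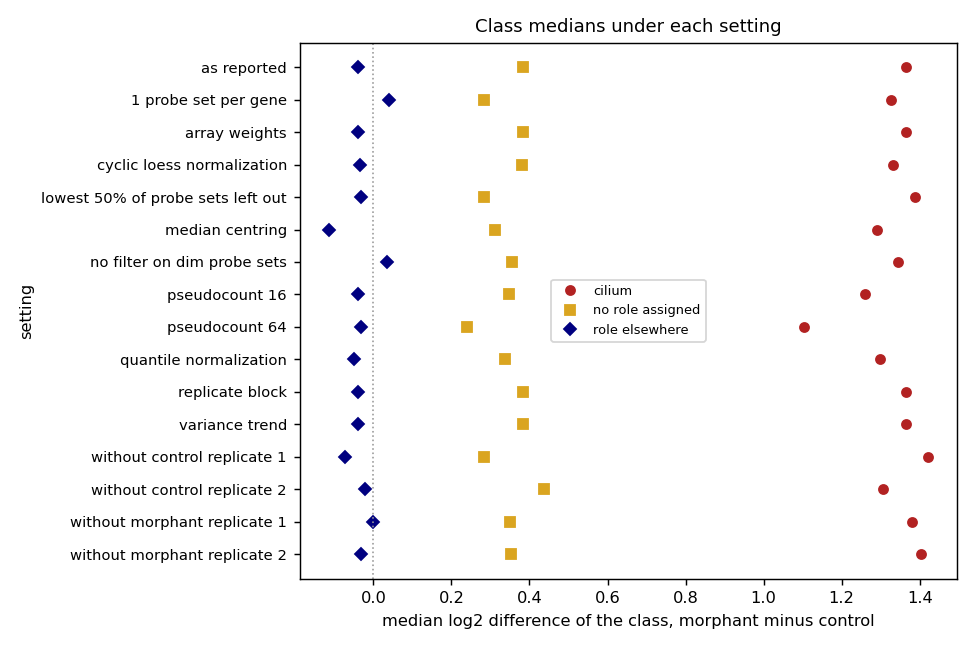
Median log2 difference of each class (horizontal axis) under each processing setting (vertical axis), with circles for the cilium class, squares for genes with no role assigned and diamonds for genes with a role elsewhere. The cilium median stays between 1.103 and 1.42, and the median of genes with a role elsewhere between -0.11 and 0.039.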

How the data were processed

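RNA was measured on 4 arrays. The authors deposited 1 log2 signal for every probe set, and the tool was MAS5 (no version given), per the submitters' processing notes. With 2% cut from both tails, mean linear signals came to 500.1 on all 4 arrays, so they share 1 scale. The table held 15617 probe sets, of which 115 are array controls, and 10795 had 1 gene symbol. The lowest 25% by mean over all arrays were left out with the controls, leaving 11626, and no pseudocount was added. A limma 3.58.1 fit (R 4.3.3, a group term, moderated variances without trend) gave the differences, with p-values adjusted by Benjamini-Hochberg over all 11626 and a threshold of 0.05. On simulated arrays with 200 changed probe sets, the fit found 73.4% of log2 changes of 2 and 2% of log2 changes of 1. Of its calls there, 6.57% were false. In the data the smallest difference called, up or down, was 1.01. A gene that did not pass may therefore still differ. The number of arrays limits the precision: the smallest two-sided p of an exact permutation test is 0.333 at 2 against 2. The genes, the role classes and the other lists were chosen with earlier results of these data known. Named genes are those past the threshold, all tested cilium genes, the 10 highest and 10 lowest others with groups apart, genes with several probe sets, the 5 brightest in the controls, and genes at background; the text gives part of these. A bound was taken per array against the higher of the probe set's own signal and the brightest absent-sequence control. Alternatives covered scaling, filter, pseudocount, variance, array weights, 1 probe set per gene, the replicate block and each array left out. No RNA of miR-34b was analysed here.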

Additional observations from a re-analysis of the deposited data

How the results depend on the processing

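The 304 calls over all probe sets became 0 with no filter on dim probe sets, 582 with a pseudocount of 64, 586 with a variance trend, and 0 to 54 with 1 array left out. The 25 calls described here became 0 with no filter (41 higher and 10 lower at an unadjusted p under 0.05 in limma) and 0 to 2 with 1 array left out; the 19 of the cilium class became 0 and 0 to 2, the 1 with a role elsewhere 0 and 0, and the 5 with no role given 0 and 0 to 1. The call with a role elsewhere, spata18, also became 0 under cyclic loess, quantile normalization and the replicate block. The labels do not say whether arrays of the same replicate number were prepared together. The correlation of same-numbered deviations was 0.02 across probe sets, and it cannot settle this. With the replicate block 17 of the 25 calls were kept, and 13 of the cilium class. The cilium median was 1.33 with 1 probe set per gene, 1.33 with cyclic loess, 1.29 with median centring, 1.26 and 1.103 with pseudocounts of 16 and 64, 1.30 with quantile normalization, and 1.31 to 1.42 with 1 array left out. The median with a role elsewhere was 0.039 with 1 probe set per gene, -0.11 with median centring, 0.034 with no filter, and -0.074 to -0.00082 with 1 array left out. The median with no role given was 0.28 with 1 probe set per gene and with the lowest 50% left out, 0.31 with median centring, 0.36 with no filter, 0.35 and 0.24 with the pseudocounts, 0.34 with quantile normalization, and 0.28 to 0.44 with 1 array left out. Differences near 0 turned sign when 1 array was left out, and ran from -0.064 (without control replicate 1) to 0.215 for ccdc61, which was also below 0 without morphant replicate 1 (-0.0073), from -0.145 (without morphant replicate 2) to 0.476 for cfap97, from -0.319 to 0.185 (without morphant replicate 1) for spag1a, and from -0.048 to 0.035 (without morphant replicate 2) for wdr90, which was also above 0 without control replicate 2 (0.014). Counting the cfap genes with no role in the cilium class, an alternative chosen after seeing the data, gave 21 calls, and moving the 6 genes of less certain class, likewise chosen after seeing the data, gave 16 calls and a median of 1.30. With no filter more probe sets were tested; the other causes were not tested.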
